A study of Mus musculus with 150 samples.

Results

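Fatty acid and cholesterol synthesis genes were followed through single mouse lung epithelial cells and through bulk libraries of sorted lung epithelium. The set holds 40 genes, listed by symbol, and all 40 were found among the 31175 genes of both single-cell tables and among the 24341 rows of the bulk table. Of the 150 samples in the series, 6 are bulk libraries (3 per genotype, wild type and p53 knockout), 72 are wild-type cells, 66 are cells labelled knockout, 4 are wells marked as debris or valve, and the rest are a negative and a positive control. Of the knockout cell samples, 2 had no matched column and are not analysed here. The bulk animals, aged 8 to 12 weeks, carried Scgb1a1-CreERTM (a tamoxifen-inducible Cre recombinase driven by the promoter of the club cell gene Scgb1a1) and the Rosa26-mT/mG reporter, with either p53+/+ or p53flox/flox alleles. Tamoxifen was thus given to wild-type and knockout animals alike, and the bulk cells were sorted as GFP+, EpCAM+, CD31/34/45- and 7AAD-, so only cells that had recombined the reporter were taken. The bulk samples are titled day 30 but their protocol states sorting 70 days after exposure, and their genotype label reads p53-/-. For the single cells, wild type included, tamoxifen is given as 250 mg/kg, and the labels leave unclear if their deletion was floxed or full.

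Fatty acids are built from acetyl-CoA, which Acly releases from citrate, by acetyl-CoA carboxylase and fatty acid synthase, and are then lengthened by elongases, given double bonds by desaturases and activated by acyl-CoA synthetases. Cholesterol is built from the same precursor through the mevalonate pathway. Both pathways are switched on by the SREBP transcription factors, which leave the endoplasmic reticulum with the escort protein Scap when sterols are low and are held back by Insig1. In the lung, alveolar type 2 cells use these lipids for surfactant, which is rich in phosphatidylcholine.

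SREBP proteins act at sterol regulatory elements together with nuclear factor Y, which binds the CCAAT box, so the 250 bases before the start of each gene were searched on both strands. RefSeq promoters (GRCm38.p6) were matched for 33 of the 40 genes, with 44 promoters, and not for Scd1, Scd2, Fads1, Fdps, Fdft1, Sqle or Fabp5. CCAAT was found for 24 of the 33 genes, among them all 10 matched cholesterol synthesis genes, and in 33.85% of all 32851 promoters of the same length. At the level of promoters, 25 of the 44 held it, and 10 of the 12 of the cholesterol synthesis genes did. The sterol regulatory element TCACNCCAC was found for Acsl1, Pcyt1a and Hmgcs1, in 4 of the 44 promoters, and in 1.053% of all promoters. Of these 4, 2 are overlapping Pcyt1a promoters that hold the same site. Its core CACNCCAC, which is part of that element, was found for 6 genes (7 of the 44 promoters) and in 5.288% of all promoters. The E-box CACGTG was found for 5 genes (5 of the 44 promoters) and in 6.021% of all promoters. A match describes these letters only and is not a measured binding site.

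Promoters of 4 genes are shown because these genes return below, each gene a key step: Hmgcs1 makes the mevalonate precursor HMG-CoA, Insig1 retains SREBP, Mvk phosphorylates mevalonate and Fasn is fatty acid synthase. Each runs 5′ to 3′ on the strand of its gene and ends just before the start. Capitals mark matches to CCAAT and to the sterol regulatory element or its core, and a match on the opposite strand appears as its reverse complement (ATTGG for CCAAT). The element of Hmgcs1 begins 136 bases before the start, and the core of Insig1 begins 9 bases before it.
Hmgcs1 (chr13:119690101-119690350, plus strand): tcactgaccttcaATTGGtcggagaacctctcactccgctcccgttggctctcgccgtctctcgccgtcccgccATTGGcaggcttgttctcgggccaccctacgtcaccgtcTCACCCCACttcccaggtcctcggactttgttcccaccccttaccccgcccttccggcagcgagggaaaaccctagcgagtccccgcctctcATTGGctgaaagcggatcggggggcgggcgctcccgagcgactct
Insig1 (chr5:28071162-28071411, plus strand): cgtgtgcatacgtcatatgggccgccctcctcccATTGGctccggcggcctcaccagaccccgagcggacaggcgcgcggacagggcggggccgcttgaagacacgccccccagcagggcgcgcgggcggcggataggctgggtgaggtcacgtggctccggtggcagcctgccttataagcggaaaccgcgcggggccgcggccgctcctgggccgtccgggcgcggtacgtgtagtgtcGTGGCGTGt
Mvk (chr5:114444019-114444268, plus strand): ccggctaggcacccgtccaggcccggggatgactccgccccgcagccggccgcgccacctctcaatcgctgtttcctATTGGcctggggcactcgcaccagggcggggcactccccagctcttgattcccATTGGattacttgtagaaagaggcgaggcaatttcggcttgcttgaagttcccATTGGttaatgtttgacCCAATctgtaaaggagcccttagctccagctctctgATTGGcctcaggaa
Fasn (chr11:120824548-120824797, minus strand): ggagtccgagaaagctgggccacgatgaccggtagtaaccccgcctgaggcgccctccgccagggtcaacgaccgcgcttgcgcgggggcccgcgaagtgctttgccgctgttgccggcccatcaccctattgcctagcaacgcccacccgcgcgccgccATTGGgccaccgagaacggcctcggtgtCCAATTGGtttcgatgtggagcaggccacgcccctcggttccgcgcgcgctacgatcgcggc

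Single cells were captured on 1 C1 chip for each genotype, so that chip and genotype cannot be told apart and no test between them was made. After removal of cells with fewer than 1000 genes at a TPM (transcripts relative to the cell's total) of 1 or more, 66 wild-type cells and 61 cells labelled knockout remained. A cell was called Sftpc-dominant or Scgb1a1-dominant by whichever of these genes had the higher TPM, which gave 17 and 49 wild-type cells and 15 and 46 cells labelled knockout. The names were set beside marker lists, which include the defining genes Sftpc and Scgb1a1 themselves. Of 12 alveolar type 2 markers, 12 and 11 were in 50% or more of Sftpc-dominant cells of the wild-type and knockout chips. All 10 club cell markers were in 50% or more of the Scgb1a1-dominant cells of both. Of the opposite lists, 6 of 10 club markers reached this share in the Sftpc-dominant cells of each chip. In the Scgb1a1-dominant cells, 7 of 12 alveolar type 2 markers did so on each chip. The classes are not pure opposites, since the other defining gene reached 1000 TPM in 8 of 17, 13 of 15, 18 of 49 and 21 of 46 cells, in the order Sftpc-dominant wild type, Sftpc-dominant knockout, Scgb1a1-dominant wild type, Scgb1a1-dominant knockout. Median detected genes in the same order were 2633, 3196, 3154 and 3824, and median ERCC spike-in shares were 22.1%, 15.4%, 11% and 5.68% of TPM. No pair of the 127 cells had identical values, and the negative control held none of the 40 genes while the positive control held 31. No fibroblast or basal marker was detected. Of 6 alveolar type 1 markers, 2, 2, 2 and 4 were in 50% or more of the cells, in that order of sets. No ciliated or endothelial marker reached this share in any set, though their sums reached 3866 and 306 TPM in single cells.

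Trp53, the gene that the labels name as lost, was detected (TPM of 1 or more) in 0 of 17 and 4 of 49 wild-type cells and in 5 of 15 and 11 of 46 cells labelled knockout, again Sftpc-dominant first. Mean Trp53 was 17.8 TPM in Scgb1a1-dominant wild-type cells and 17.6 TPM in those labelled knockout. In Sftpc-dominant cells it was 0 and 98.7 TPM. The knockout chip also had more detected genes, whose part in these counts was not tested. The values do not show the loss that the label names, so these cells are called cells labelled knockout. In bulk, Trp53 was 20.2 ± 3.09 FPKM (fragments scaled by transcript length and library size; SD, n = 3) in wild type and 8.73 ± 1.21 in knockout, with no overlap and a log2 fold change of -1.12 that did not pass limma (adjusted p = 0.144). Without wild-type replicate 1, which stood apart (below), it was -1.25 and passed (limma adjusted p = 0.00992, where 0.534% of all genes were called lower).

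Sftpc-dominant cells held more of the fatty acid genes than Scgb1a1-dominant cells on both chips, led by Scd1, Elovl1, Lpcat1 and Fabp5. No cholesterol synthesis gene passed the size rule on both chips, and most of these 13 genes were detected in few cells. Of the 40 genes, 20 reached a detection of 30% in the higher class on both chips. Of these, 8 were higher by at least 1 in mean log2(TPM + 1) on both, with 1 lower. Detection in either class sufficed, for members and all genes alike, so a gene could enter only through the class where it was higher. Of those counted on both chips, Fasn, Scd2, Fabp5 and Acsl1 entered in this way on the wild-type chip. On the knockout chip Acsl1 did. Over all genes detected in the same way, 3.11% were higher and 10.5% lower on both chips. Within the wild-type chip, 10 of 20 were higher and 1 lower, where all genes gave 8.27% and 21.6%, and within the knockout chip 13 of 27 were higher and 3 lower, where all genes gave 8.03% and 19.8%. With a pseudocount of 10 the knockout chip gave 8 higher and 1 lower (2.54% and 5.74% of all genes). Over all 40 genes the median difference was 0.28 on the wild-type chip and 0.44 on the knockout chip, and over all detected genes it was -0.14 and -0.10. These are descriptions of cells from 1 chip each.

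**Figure D1:**
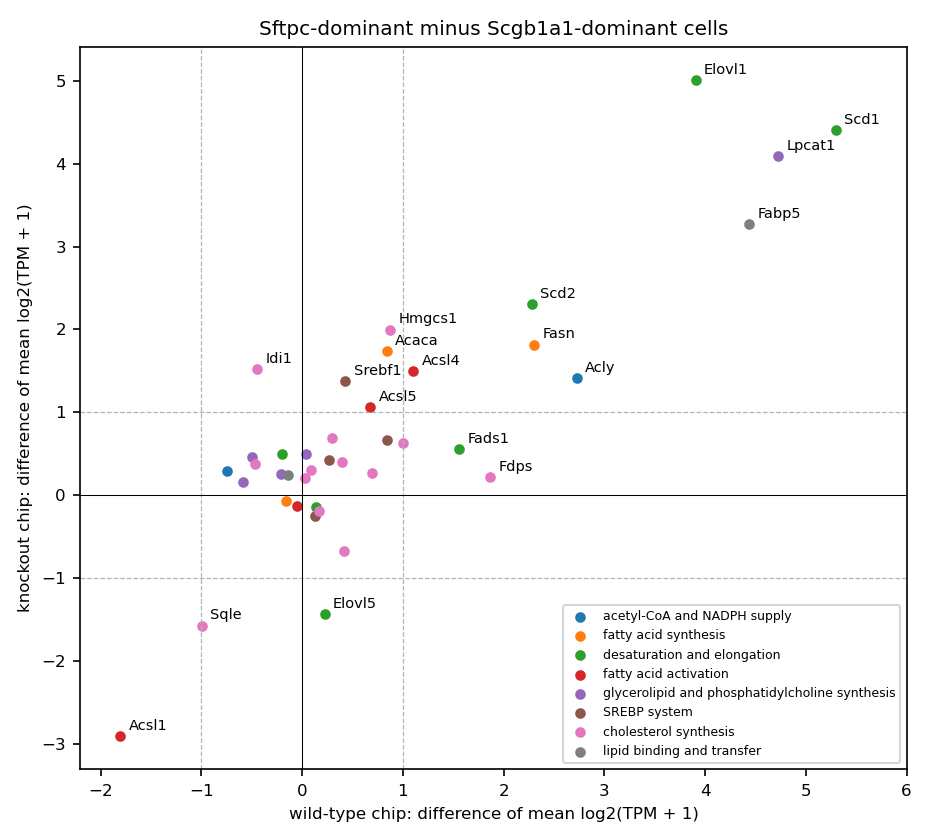
Difference in mean log2(TPM + 1), Sftpc-dominant minus Scgb1a1-dominant cells, on the wild-type chip (x axis) and the knockout chip (y axis), 1 point per gene, coloured by role, with dashed lines at a difference of 1. Scd1, Elovl1, Lpcat1 and Fabp5 lie far to the upper right, and Acsl1 lies to the lower left.

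Among the genes that supply acetyl-CoA and NADPH, Acly ranged from 0 to 214 TPM (median 28.1) in the Sftpc-dominant wild-type cells and from 0 to 160 (median 0.27) in the Scgb1a1-dominant ones. On the knockout chip the medians were 37.6 and 4.11 TPM. The class difference was 2.72 on the wild-type chip and 1.41 on the knockout chip. Me1, the cytosolic malic enzyme that makes NADPH, differed by -0.75 and 0.30 and passed the size rule on neither.

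Fasn, which carries out the chain-building step of fatty acid synthesis, had medians of 9.94 TPM (highest 107) and 0.02 TPM (highest 58.8) in the Sftpc-dominant and Scgb1a1-dominant wild-type cells. The medians on the knockout chip were 7.84 and 0.195 TPM, and the differences were 2.30 and 1.82. Acaca, the carboxylase that starts the chain, was higher by 1.74 on the knockout chip and by 0.84 on the wild-type chip, where it did not reach the size rule. Acacb, the mitochondrial form, was in no Sftpc-dominant cell of either chip, which allows a share of up to 17.6% and 20% of cells (3 cells of the total), or 19.5% and 21.8% as the upper ends of the exact 95% intervals.

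Scd1, the desaturase that makes monounsaturated fatty acids, was the member with the highest mean TPM in each of the 4 sets of cells. It was detected in 17 of 17 and 15 of 15 Sftpc-dominant cells (exact 95% intervals 80.5% to 100% and 78.2% to 100%) and in 31 of 49 and 36 of 46 Scgb1a1-dominant cells (48.3% to 76.6% and 63.6% to 89.1%). Its TPM ran from 8.2 to 3344 (median 516) and from 92.3 to 4354 (median 847) in the Sftpc-dominant cells, and from 0 to 1817 (median 3.85) and from 0 to 1188 (median 30.1) in the Scgb1a1-dominant cells. The classes overlapped in single cells, and the difference in mean log2(TPM + 1) was 5.30 and 4.41. Scd2, its neighbour on chromosome 19 (mm10 positions 44293674 to 44306864, against 44394455 to 44407879 for Scd1), differed by 2.28 and 2.30, and reads of these close paralogues could be split between them.

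Elovl1, an elongase of very long chain fatty acids, had medians of 115 and 641 TPM in the Sftpc-dominant cells and 0.81 and 0.10 in the Scgb1a1-dominant cells. Its differences were 3.91 and 5.01. Elovl5, an elongase of polyunsaturated fatty acids, differed by 0.22 on the wild-type chip and by -1.43 on the knockout chip. Fads1, a desaturase of polyunsaturated fatty acids, differed by 1.56 and 0.56. Elovl6 and Fads2 were detected in under 30% of the cells of each set.

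**Figure D2:**
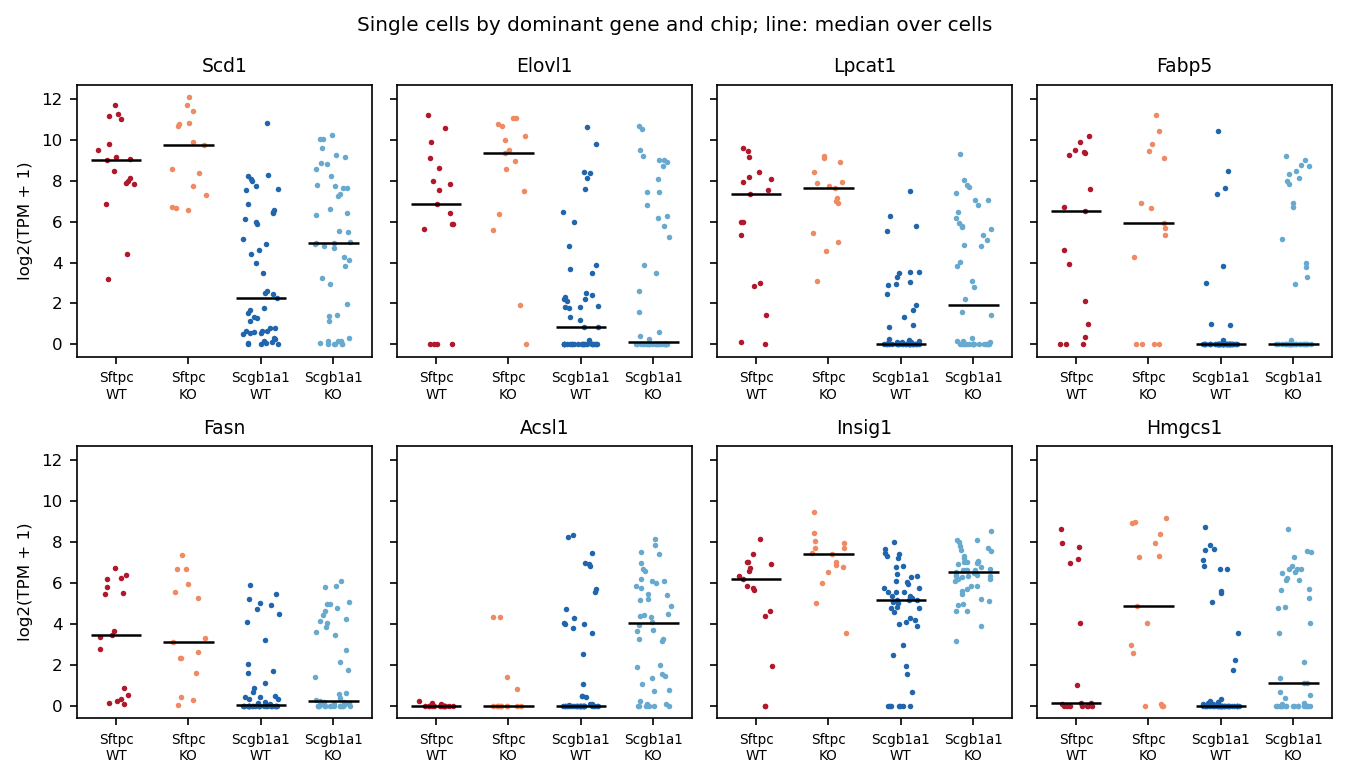
Log2(TPM + 1) of 8 genes in every kept cell, by dominant gene and chip (WT, wild type; KO, labelled knockout), with a black line at the median. All Sftpc-dominant cells lie above 0 for Scd1, and most Scgb1a1-dominant cells lie at or near 0 for Fabp5 and Fasn.

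The acyl-CoA synthetases, which activate fatty acids for later use, divided between the classes. Acsl4, which prefers arachidonic acid, had medians of 198 and 204 TPM in the Sftpc-dominant cells and 53.5 and 73.5 in the Scgb1a1-dominant cells, a difference of 1.1 and 1.5. Acsl1 was lower in Sftpc-dominant cells on both chips, with differences of -1.80 and -2.91. It was detected in 0 of 17 Sftpc-dominant wild-type cells, which allows a share of up to 17.6% (3 cells of the total; exact 95% upper end 19.5%), and in 17 of 49 Scgb1a1-dominant ones, and in 3 of 15 and 35 of 46 cells of the knockout chip. Acsl5 differed by 0.68 and 1.06, and Acsl3 was in under 30% of the cells of each set.

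Lpcat1, the acyltransferase that remakes phosphatidylcholine in alveolar type 2 cells, had medians of 161 and 195 TPM in the Sftpc-dominant cells and of 0 and 2.88 TPM in the Scgb1a1-dominant cells. It was detected in 15 of 17 and 15 of 15 against 15 of 49 and 25 of 46, and the differences were 4.72 and 4.09. The enzymes of the phosphatidylcholine route before it, Chka (choline kinase) and Pcyt1a (the rate-limiting enzyme), differed by -0.50 and 0.46 and by -0.21 and 0.25. Fabp5, a fatty acid binding protein, was in 12 of 17 and 11 of 15 Sftpc-dominant cells and in 7 of 49 and 16 of 46 Scgb1a1-dominant cells, with differences of 4.44 and 3.27.

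Of the SREBP system, Insig1 was high in both classes, with differences of 0.84 and 0.66 that were under the size rule. Srebf1, the factor tied to fatty acid genes, differed by 0.43 and 1.37, and Srebf2, tied to cholesterol genes, by 0.12 and -0.25. Among the 13 cholesterol synthesis genes, only 4 on the wild-type chip and 8 on the knockout chip met the detection limit. Fdps, which makes farnesyl diphosphate, was higher in Sftpc-dominant cells on the wild-type chip (1.87) and differed by 0.22 on the knockout chip. Hmgcs1 and Idi1, the isopentenyl diphosphate isomerase, were higher on the knockout chip by 2.00 and 1.52 and differed by 0.87 and -0.45 on the wild-type chip. Sqle, the squalene epoxidase, was lower on the knockout chip (-1.58). Fdft1 (squalene synthase), Cyp51, Msmo1 and Sc5d (later sterol steps) differed by 1.00, 0.41, -0.47 and 0.09 on the wild-type chip and by 0.63, -0.67, 0.38 and 0.30 on the knockout chip, and none was counted.

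**Figure D3:**
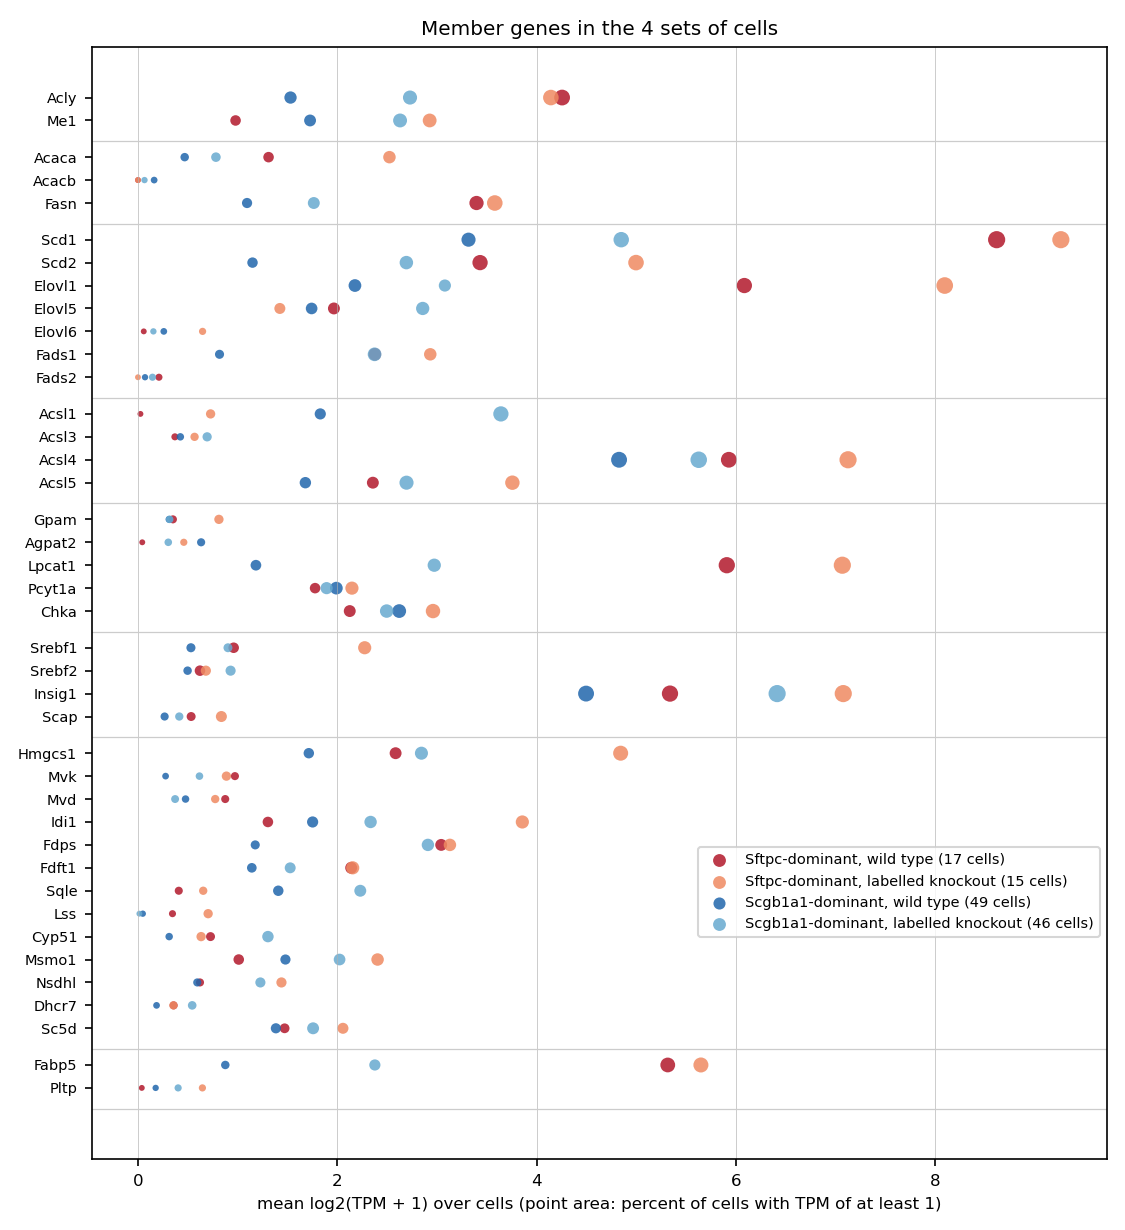
Mean log2(TPM + 1) of all 40 genes in the 4 sets of cells, grouped by role, with larger points where more cells had a TPM of at least 1. Red and orange points (Sftpc-dominant) lie to the right of blue points for Scd1, Elovl1, Lpcat1 and Fabp5, and blue points lie to the right for Acsl1.

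The summed TPM of all 40 genes had medians of 2520 and 2797 in the Sftpc-dominant cells and of 531 and 1043 in the Scgb1a1-dominant cells. The 13 cholesterol synthesis genes alone summed to medians of 215 and 514 against 105 and 238 TPM. Many genes were sparse: 13 of the 40 were detected in under 30% of the cells in all 4 sets, namely Acacb, Elovl6, Fads2, Acsl3, Gpam, Agpat2, Srebf2, Mvk, Mvd, Lss, Nsdhl, Dhcr7 and Pltp. The number of members found in a cell went with its detected genes, with Spearman's rho of 0.72, 0.30, 0.73 and 0.40 over the cells of the sets in the order given above. Values of cells of 1 chip share that chip and its depth, so this is a description.

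Over the Sftpc-dominant cells, pairs of members were compared by Spearman's rho on each chip (17 and 15 cells) and ranked by the lower value. Scd1 and Fabp5 were most alike, with rho of 0.79 and 0.88, followed by Fdft1 and Fabp5 with 0.71 and 0.59. Acsl4 and Lpcat1 gave 0.63 and 0.52, Scd1 and Elovl1 gave 0.54 and 0.49, and Scd1 and Fdps gave 0.50 and 0.47. Over the 120 pairs of members compared in this class the median rho was 0.25 and 0.17.

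In 51 other genes of lipid metabolism, 16 met the detection limit on both chips, and Soat1 was higher and Acadm lower in Sftpc-dominant cells on both. Over all genes detected in the same way, 3.11% were higher and 10.5% lower on both chips, so 1 gene each way sets this list little apart. Soat1, which esterifies cholesterol for storage, differed by 2.51 and 2.67. Acadm, the medium-chain dehydrogenase of fatty acid oxidation, differed by -3.10 and -1.19.

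The cells labelled knockout had higher values of many members than the wild-type cells, and so did genes at large. Detection in either set sufficed, for members and all genes alike, so a gene could enter only through the set where it was higher. In Sftpc-dominant cells 12 of 24 detected members were higher by at least 1 and 0 lower, where all detected genes gave 27.8% and 3.83%. In Scgb1a1-dominant cells 12 of 24 were higher and 0 lower, where all detected genes gave 17.2% and 0.405%. With a pseudocount of 10 these counts of higher members fell to 5 and 3 (8.59% and 3.05% of all genes). After centring on the median gene the Sftpc-dominant count was 6 (14.8% of all genes), and with classes at least 4-fold apart the Scgb1a1-dominant count was 6 (22.1% of all genes). The median over all detected genes was itself 0.44 and 0.43, and the knockout chip had more detected genes and a smaller spike-in share, whose part in the difference was not tested. Among cells with at least 2000 detected genes, 4 members were higher and 4 lower in the Sftpc-dominant class (18% and 11.3% of all genes). The 5 genes higher in both classes were Scd2, Acsl5, Lpcat1, Insig1 and Hmgcs1.

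In the Sftpc-dominant cells the members with the largest genotype differences were Idi1 (2.55), Hmgcs1 (2.26), Elovl1 (2.01) and Me1 (1.95). Hmgcs1 had a median of 0.09 TPM (highest 396) in 17 wild-type cells and of 28.0 TPM (highest 572) in 15 cells labelled knockout. Idi1 was detected in 5 of 17 and 8 of 15 of them, and Me1 in 5 of 17 and 9 of 15. Both met the detection limit only in the cells labelled knockout. In the Scgb1a1-dominant cells the leading members were Insig1 (1.92), Acsl1 (1.81), Lpcat1 (1.79) and Fdps (1.73). Of these, Fdps met the detection limit only in the cells labelled knockout (21 of 46, against 9 of 49 wild-type cells). Insig1 ran from 0 to 258 TPM (median 35.5) in wild-type cells and from 8.09 to 368 TPM (median 90.6) in cells labelled knockout, where all 46 cells had it. All these sets overlapped in single cells.

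A single Scgb1a1-dominant cell labelled knockout held 8879 TPM of immune markers (Tyrobp 2324, Fcer1g 3237, Laptm5 1944, Mrc1 1117) with 11170 TPM of Scgb1a1. It also held 1487 TPM of Pltp, the phospholipid transfer protein, which was detected in 5 cells in all. The mean Pltp of that set was 33.2 TPM with this cell and 0.878 TPM without it. With the cell, 12 members were higher and 0 lower between the genotypes in this class, where all detected genes gave 17.2% and 0.405%. Without it the counts were 13 and 0, for which the share of all genes is not given here.

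The bulk libraries address the same genes in sorted cells with 3 libraries for each genotype. The labels do not say if each library is a separate animal, so the p-values rest on a spread between libraries that may be technical. The value headers of all bulk libraries but wild-type replicate 6 begin with "second", and what this means is not given. In bulk, fewer cells of a type and less RNA per cell cannot be told apart. Summed FPKM ran from 437710 to 678870 per library. All 40 genes passed the filter on low values (FPKM of 1 or more in 3 or more of the 6 libraries).

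The members were mostly lower in the bulk knockout libraries, and none passed the test. Of the 40, 35 had a negative log2 fold change with a median of -0.46, where 48.5% of all 11957 tested genes were negative and the median was 0.01. By limma 0 of the 40 had an adjusted p under 0.05 (0.00836% of all genes did), 16 had an unadjusted p under 0.05 in the lower direction (6.06% of all genes) and 1 in the higher direction (7.04%). In 21 genes every knockout library was below every wild-type library (10.2% of all genes), and in 0 every knockout library was above (9.04%). The 21 were Acly, Acaca, Fasn, Scd2, Elovl1, Fads1, Fads2, Acsl4, Acsl5, Lpcat1, Srebf1, Insig1, Fabp5 and 8 of the 13 cholesterol synthesis genes (Mvk, Mvd, Idi1, Fdft1, Cyp51, Msmo1, Nsdhl and Dhcr7). With libraries scaled to the same total FPKM the 21 became 9, where all genes gave 6.01%.

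**Figure D4:**
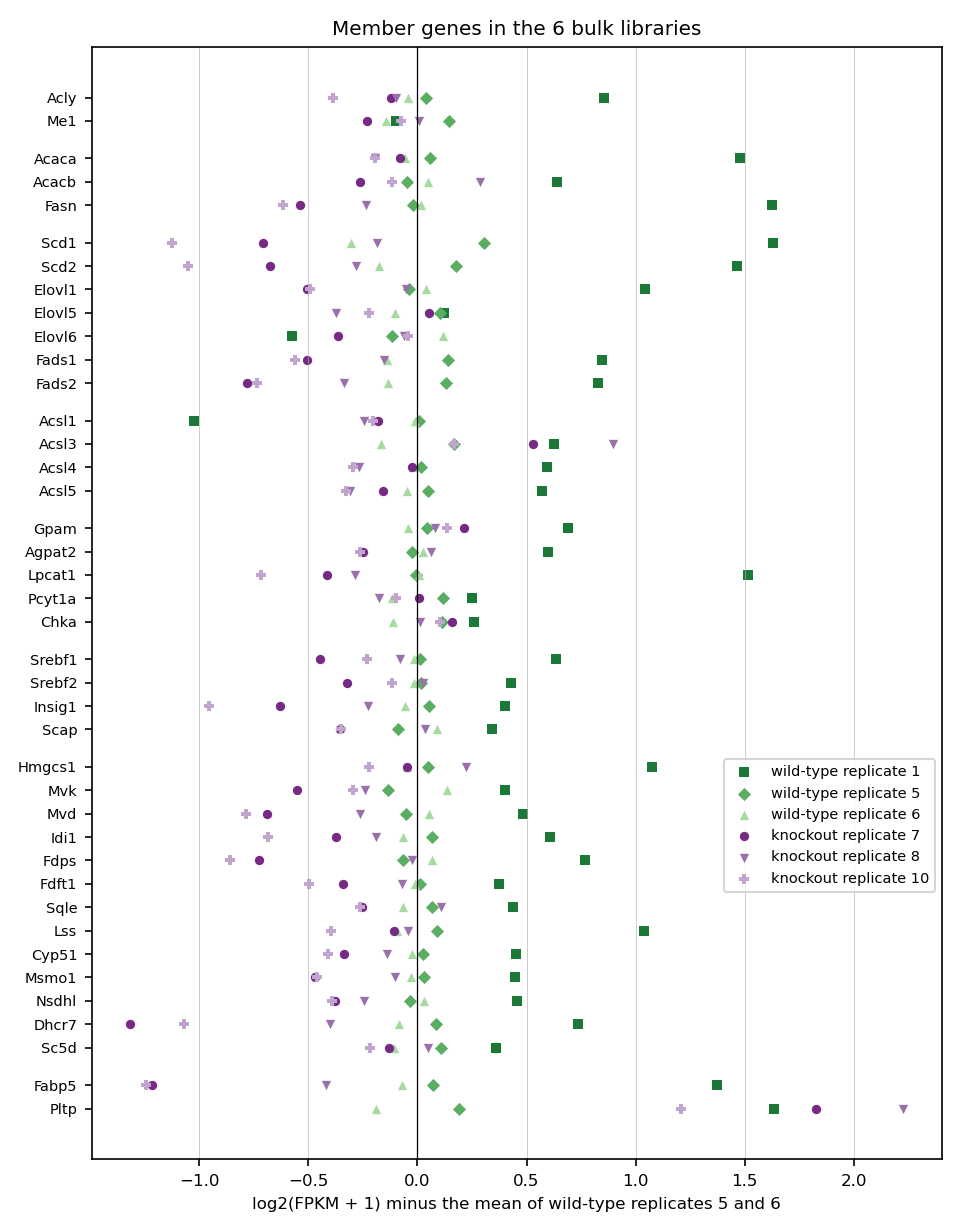
Log2(FPKM + 1) of the 40 genes in the 6 bulk libraries, as the difference from the mean of wild-type replicates 5 and 6, grouped by role. Wild-type replicate 1 (dark green squares) lies to the right for most genes, and the knockout libraries (purple) lie mostly to the left of 0, except for Pltp.

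Wild-type replicate 1 stood apart and was the highest of the 6 libraries in 35 of the 40 genes. Its mean log2 level of the 10 alveolar type 2 markers with 6 values was 9.80, against 8.61 and 8.66 in wild-type replicates 5 and 6 and 8.21, 8.35 and 8.15 in knockout replicates 7, 8 and 10. Its mean of the club list (8 of 10 with values) was 10.36, against 11.99 and 11.99 and 11.50, 11.76 and 11.80. Their part in the members' values was not tested. Without this library Acacb no longer passed the filter on low values, and 35 of the 39 members tested had a negative fold change (52.5% of all genes), with a median of -0.25. By limma, 0 of the 39 were then called lower (0.534% of all genes) and 16 had an unadjusted p under 0.05 in the lower direction (6.99% of all genes). The 13 cholesterol synthesis genes had negative fold changes with and without it, from -1.17 (Dhcr7) to -0.22 (Sc5d) with it and from -0.93 (Dhcr7) to -0.01 (Hmgcs1) without it.

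Scd1 was 3729, 1486 and 976 FPKM in wild-type replicates 1, 5 and 6 and 738, 1059 and 552 in knockout replicates 7, 8 and 10. The lowest wild-type and the highest knockout library overlapped, and the log2 fold change was -1.21 ± 0.51 (standard error). Fasn was 357, 114 and 117 FPKM in wild type and 78.9, 97.6 and 74.8 in knockout, with no overlap. Its log2 fold change was -1.01 (limma adjusted p = 0.386), and -0.46 without wild-type replicate 1. Lpcat1 was 690, 240 and 242 FPKM against 181, 198 and 146, with no overlap. Elovl1 was 652, 307 and 324 against 222, 305 and 224 FPKM, where knockout replicate 8 lay next to the wild-type replicates.

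The members with the smallest p included 5 cholesterol synthesis genes. Dhcr7, which carries out the last step to cholesterol, was 17.6, 10.8 and 9.50 FPKM in wild type and 3.48, 7.45 and 4.30 in knockout. Its means were 12.6 ± 4.33 and 5.08 ± 2.09 (SD, n = 3), the groups did not overlap, and its log2 fold change was -1.17 (limma adjusted p = 0.308). Mvd, the decarboxylase of the mevalonate pathway, was 21.2, 14.3 and 15.5 against 8.87, 12.3 and 8.22 FPKM, again without overlap, with a log2 fold change of -0.74. Nsdhl, which removes methyl groups from sterols, was 20.3, 14.2 and 14.9 against 11, 12.1 and 10.9 FPKM, a log2 fold change of -0.49. Mvk and Idi1 had log2 fold changes of -0.50 and -0.62, and neither had overlapping groups.

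Insig1 was 107, 83.9 and 77.7 FPKM in wild type and 51.9, 68.8 and 41.1 in knockout, without overlap, and its log2 fold change was -0.74 (limma adjusted p = 0.312). Fads2, the desaturase next to Fads1 on chromosome 19, was 50.4, 30.8 and 25.4 against 15.9, 22 and 16.4 FPKM, a log2 fold change of -0.89. Fabp5 was 671, 272 and 246 against 111, 194 and 109 FPKM, a log2 fold change of -1.42. All 3 of these genes had each knockout library below each wild-type library, and their limma adjusted p was 0.312 each.

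Pltp went the other way, at 36.2, 12.7 and 9.48 FPKM in wild type and 41.4, 55 and 26.6 in knockout, so that of the wild-type libraries replicate 1 alone fell within the range of the knockout. Its log2 fold change was 1.21 (limma adjusted p = 0.366), and without wild-type replicate 1 it was 1.75 and passed (limma adjusted p = 0.0309, where 2.92% of all genes were called higher). The mean of the 10 ciliated markers was 4.86, 3.27 and 3.14 in wild-type replicates 1, 5 and 6 and 5.18, 5.51 and 4.77 in the knockout libraries, the same order of wild-type libraries as for Pltp, and its part was not tested. Of the others, Elovl6, Acsl1, Acsl3 and Chka had positive log2 fold changes of 0.04, 0.13, 0.32 and 0.00.

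Among the 51 other lipid genes 49 were tested, and 29 were negative with a median of -0.04, where 48.5% of all genes were negative. None passed limma, 5 had an unadjusted p under 0.05 in the lower and 4 in the higher direction (6.06% and 7.04% of all genes). The 4 with the smallest p were Lpin1 (-0.76), a phosphatidate phosphatase, Pemt (0.45), which methylates phosphatidylethanolamine, Dgat2 (0.92), which makes triglyceride, and Scarb1 (-0.62), a receptor for high density lipoprotein. Without wild-type replicate 1 Dgat2 passed (1.15, limma adjusted p = 0.0408).

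The genotype differences of bulk and cells were set side by side. Of the 19 members higher in the cells labelled knockout in at least 1 class, 18 had a negative bulk log2 fold change, and so did the 5 that were higher in both classes. The share is close to that of the members as a whole, of which 35 of 40 were negative in bulk, and in the cells the median over all detected genes was also above 0 (0.44 and 0.43). Insig1 was higher by 1.74 and 1.92 in the Sftpc-dominant and Scgb1a1-dominant cells and lower by 0.74 on the log2 scale in bulk, and Hmgcs1 differed by 2.26 and 1.13 in the cells and by -0.37 in bulk. The sign of the cell differences rests on the genotype label of the cells, which the Trp53 values do not bear out. With the labels exchanged each cell difference would change sign, but Trp53 was detected in a minority of each set and an exchange was not tested. The scales, the preparation and the unit of replication also differ between the data sets, and the difference itself was not tested.

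**Figure D5:**
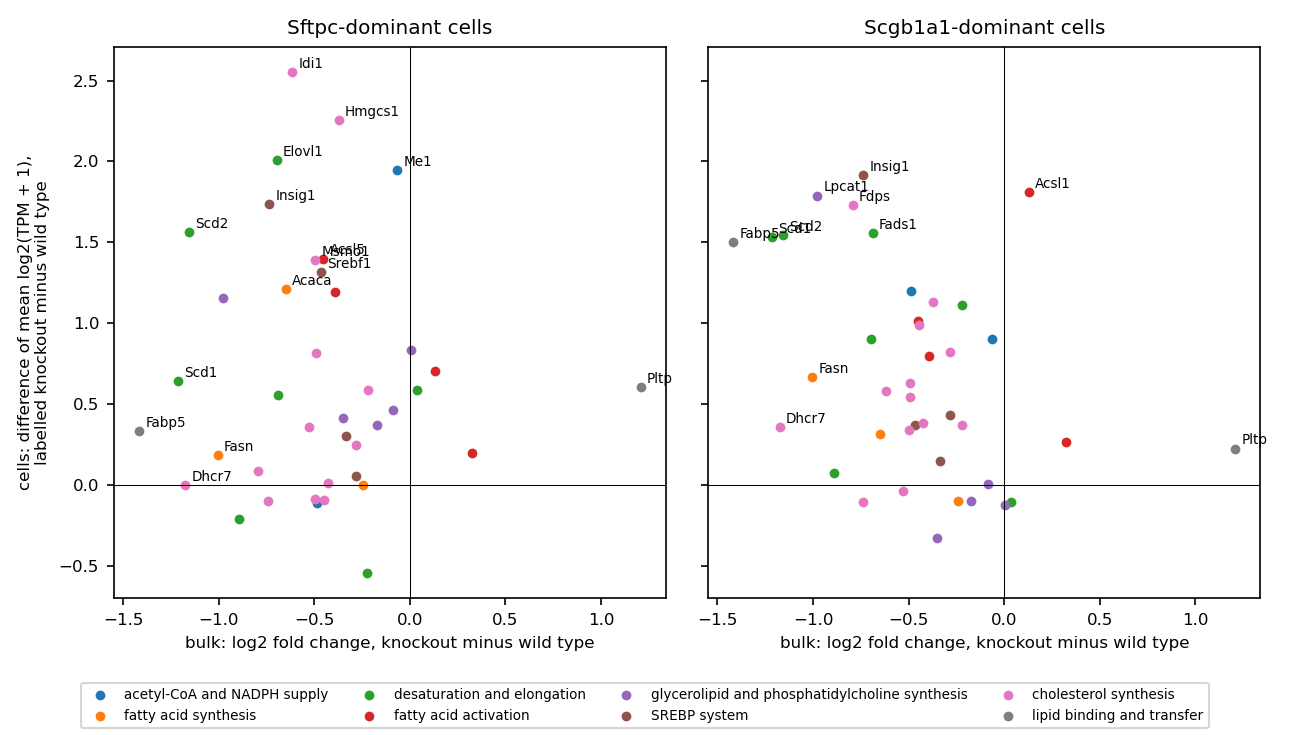
Bulk log2 fold change, knockout minus wild type, (x axis) against the difference of mean log2(TPM + 1) between cells labelled knockout and wild-type cells (y axis), for Sftpc-dominant cells (left) and Scgb1a1-dominant cells (right), 1 point per gene. Most genes lie in the upper left, negative in bulk and positive in the cells, and Pltp lies at the right.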

How the data were processed

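The bulk table holds FPKM values that the authors deposited, for which the submitters' processing notes list mm10 and the tools TopHat, Bowtie2 and Cufflinks. The lowest value is 0.01, and 20 entries in 12 genes are marked in place of a value; these genes were left out. The single-cell tables hold TPM values that the authors deposited, for which the same notes list GRCm38, Bowtie 1.1.1 and RSEM 1.2.20, with 92 spike-in rows. Read depth is not given, so no count model was used and no depth limit was set.

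The bulk test was limma 3.58.1 under R 4.3.3 on log2(FPKM + 1) (empirical Bayes with trend and robust, two-sided, Benjamini-Hochberg over all genes tested), which understates the change of low genes. Genes entered with an FPKM of 1 or more in 3 or more libraries. In cells, a difference of mean log2(TPM + 1) of at least 1, given a TPM of 1 or more in 30% or more of the higher set, was counted, with no test. Exact (Clopper-Pearson) 95% intervals over cells cover counting error only. Scripts ran in Python 3.11.15 and were tested on simulated data. The simulated cells had less spread, and the simulated shifts were larger, than seen for most members. These runs therefore checked the code and not its performance at the observed values. Genes described in full were the 8 members of smallest bulk p, those past the size rule in the same direction on both chips, and the 4 largest genotype differences of each class; Trp53 checked the labels. Scd1, Fasn, Lpcat1, Elovl1, Hmgcs1 and Pltp in bulk were added after their values were seen. The members and lists were chosen with earlier results of these data known. The alternative without the cell with immune markers was chosen after seeing the data.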

Additional observations from a re-analysis of the deposited data

How the results depend on the processing

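Bulk results were recomputed with libraries scaled to the same total FPKM, quantile normalization, a pseudocount of 0.1, no filter (constant genes dropped), library weights and each library left out. The count of members past limma's threshold was 0 in the reported fit, 3 with library weights (Fads2, Dhcr7 and Pltp; 913 of all genes passed there) and between 0 and 1 over the fits without 1 library, where the 1 was Pltp without wild-type replicate 1. Members lower without overlap numbered 21 as reported (10.2% of all genes), 9 with total scaling (6.01%) and between 21 and 30 without 1 library. Leaving a library out can only keep or raise this count, and the share of all genes was not computed there. Signs turned for genes near 0: Chka with total scaling (-0.017), Elovl6 with quantile normalization (-0.019), and with library weights Elovl6 (-0.055), Acsl1 (-0.17), Gpam (0.080) and Chka (-0.00012). Over the fits without 1 library, Elovl6 ranged from -0.16 to 0.14, Acsl1 from -0.21 (without wild-type replicate 1) to 0.30, Gpam from -0.22 to 0.14 (without wild-type replicate 1), Me1 from -0.12 to 0.023 (without wild-type replicate 5) and Chka from -0.096 (without wild-type replicate 6) to 0.091. The cause was not tested. No paired analysis was possible because the wild-type replicates (1, 5, 6) and knockout replicates (7, 8, 10) share no number.

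In cells, members lower in Sftpc-dominant wild-type cells numbered 2 with a pseudocount of 0.1, 0 with 10, 2 with at least 2000 detected genes and 2 as a ratio of mean TPM, against 1. In the reported setting that was 1 of 20 detected members, where 21.6% of all detected genes were lower. The shares of all genes in the other settings are not given here, so those counts cannot be set against them. On the knockout chip a pseudocount of 10 gave 8 higher and 1 lower. Between genotypes, members higher in Sftpc-dominant cells numbered 5 with a pseudocount of 10, 4 (with 4 lower) at 2000 detected genes and 6 after centring on the median gene. In Scgb1a1-dominant cells they numbered 3 with a pseudocount of 10 and 6 with classes at least 4-fold apart. For the counts of the knockout chip and between genotypes, the shares of all genes in the same settings stand with the results above.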
